A study of Mus musculus with 5 samples.

Results

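The integrins and leukocyte adhesion receptors of myeloid cells were examined in Lin-cKit+Sca1- (KL) bone marrow cells with and without a deletion in Bcor. The set was a list of 9 gene symbols of related function, drawn up with earlier results of these data known, although its rule uses no measured value: the integrin alpha subunits Itgam, Itgal, Itga4 and Itga6, the beta subunits Itgb1, Itgb2 and Itgb7, the selectin ligand Selplg and the hyaluronan receptor Cd44. All 9 were found among the 52550 genes of the count table, and each of the 9 passed the expression filter that left 11766 genes for testing. Itgam was 1.29-fold higher and Itga6 1.31-fold higher in BcorΔE9-10 than in BcorWT cells, whereas Itgal stood at 0.766 and Itgb7 at 0.652 of the BcorWT level. After correction for GC content the Itgam log2 fold change of 0.37 was 0.02. None of these differences passed the threshold across all genes (0 of 9 with a limma adjusted p under 0.05), and for the shared beta subunits Itgb1 and Itgb2 the BcorΔE9-10 libraries lay on both sides of the BcorWT libraries.

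Integrins are heterodimers of an alpha and a beta chain that hold a leukocyte to matrix and to other cells. Itgb2 pairs with Itgal to form LFA-1, which binds ICAM proteins, and with Itgam to form Mac-1 (CD11b/CD18), a receptor of granulocytes and monocytes for complement fragments, fibrinogen and ICAM-1. Itgb1 pairs with Itga4 to form VLA-4, which holds progenitors to VCAM-1 and fibronectin in the marrow, and with Itga6 to form a laminin receptor, while Itgb7 with Itga4 forms a homing receptor for the gut. Selplg encodes PSGL-1, the main ligand of P-selectin on leukocytes, and Cd44 encodes the main receptor for hyaluronan.

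BcorΔE9-10 libraries (n = 3) came from male mice with a floxed Bcor allele on their single X chromosome (Bcorfl/y) and an scl-Cre-ERT transgene, and BcorWT libraries (n = 2) from male mice with the same transgene and an intact allele (Bcorwt/y). Both groups were 3 to 6 months old when they received intraperitoneal tamoxifen at 1 mg per day for 5 days, and KL cells were sorted 20 weeks later. Per the text of the study the transgene acts in haematopoietic stem cells, loss of exons 9 and 10 shifts the reading frame, and a low level of truncated Bcor protein remains. Per the text of the study, lineage-positive cells were removed with antibodies against CD5 and B220 (T and B lymphocytes), CD11b and Gr-1 (granulocytes and monocytes), the neutrophil antigen 7-4 and the erythroid antigen Ter-119. The gate thus bears on 1 member directly, since Itgam encodes CD11b. The labels number the samples of each group but do not tie them to animals, so p-values measure the spread between these samples.

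Total counts ranged from 5998924 to 8303999 in the BcorΔE9-10 libraries and from 7091726 to 7578505 in the BcorWT libraries. Levels are given as CPM, the counts of a gene divided by the TMM-scaled total of its library in units of 1e+06 counts. Bcor itself counted 196, 168 and 185 reads in BcorΔE9-10 cells and 83 and 109 in BcorWT cells, 24.1 ± 3.00 CPM (SD, n = 3) against 14.0 ± 3.09 CPM (SD, n = 2). It passed the test as higher (log2 fold change 0.78, SE 0.218, limma adjusted p = 0.0313), but these 3′ counts do not read the deleted exons and so check no label. Its transcript end is 26% GC, and no GC-corrected value is given here. Of the sort-gate genes, Kit was higher (log2 fold change 1.43, limma adjusted p = 9.82e-05) and Ly6a, which encodes Sca-1, had 3 to 8 counts in each library. After GC correction Kit stood at 1.06 (limma adjusted p = 0.00112). Of 10 genes of maturing neutrophils, 6 were called lower and 0 higher (5 to 8 lower and 0 to 1 higher over 16 alternative fits, with 8 lower under a replicate block, with or without GC correction, and without BcorWT replicate 2), and their summed level was 149640 to 173550 CPM in the BcorΔE9-10 libraries against 216250 to 228655 CPM in the BcorWT libraries. The BcorWT libraries were unlike each other in Ly6g, with 570 CPM in replicate 1 and 321 CPM in replicate 2, and both stood above the 208 to 228 CPM of the BcorΔE9-10 libraries.

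Promoter sequence is shown for 1 member that was higher in BcorΔE9-10 cells and 1 that was lower, both with the GAGGAA core that PU.1 and other Ets factors of myeloid cells bind. RefSeq promoter windows (build GRCm38.p6, 250 bases before to 50 bases after the annotated start) were matched for 5 of the 9 members: Itgam, Itga4, Itgb1, Itgb7 and Cd44. The Itgam window lies at chr7:128062390-128062689 on the plus strand and the Itgb7 window at chr15:102231886-102232185 on the minus strand. Capitals mark GAGGAA on the printed strand or TTCCTC, its complement on the other strand.
Itgam: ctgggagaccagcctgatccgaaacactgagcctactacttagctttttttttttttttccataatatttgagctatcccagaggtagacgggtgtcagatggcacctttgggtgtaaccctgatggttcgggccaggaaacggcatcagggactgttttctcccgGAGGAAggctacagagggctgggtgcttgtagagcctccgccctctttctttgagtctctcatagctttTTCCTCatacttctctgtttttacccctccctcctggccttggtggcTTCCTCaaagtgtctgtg
Itgb7: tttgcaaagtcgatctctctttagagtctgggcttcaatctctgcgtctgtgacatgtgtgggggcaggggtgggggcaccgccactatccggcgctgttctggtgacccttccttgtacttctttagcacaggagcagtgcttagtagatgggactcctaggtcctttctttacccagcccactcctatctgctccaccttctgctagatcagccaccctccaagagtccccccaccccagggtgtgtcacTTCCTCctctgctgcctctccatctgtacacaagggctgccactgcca
The Itgam window held 3 matches, 1 on the printed strand and 2 on the other, and the Itgb7 window held 1. Of the other windows, that of Cd44 held 2 matches, that of Itgb1 held 1 and that of Itga4 held 0, and 28.28% of all 32851 promoter windows of the same length held at least 1. The GC box GGGCGG was found once in each of the Itgam, Cd44, Itgb1 and Itga4 windows and not in that of Itgb7 (35.66% of all windows). The Runx core TGTGGT was found once, in the Itga4 window (16.76% of all windows), and the Cebp sequence TTGCNNAA in 0 of the 5 windows (10.8% of all windows). Both strands were searched for each motif. A match of letters is a description and not a site of binding, and its absence says only that the letters are not in the window.

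Across the set the differences were small and went both ways. On the log2 scale 4 members were above 0 and 5 below, with a median of -0.03 beside 0.00 for all genes tested, and 95% intervals lay between -1.06 and 0.76. By limma 0 of the 9 members passed an adjusted p under 0.05, where 10.1% of all genes tested did (6.02% higher and 4.09% lower). Before adjustment 4 of 9 (Itgam, Itgal, Itga6 and Itgb7) had a p under 0.05, where 25.3% of all genes did, and 1 of 9 (Itgb7) also had an absolute log2 fold change over 0.5, where 16.7% did. The edgeR quasi-likelihood test also called 0 of 9, where it called 11.2% of all genes, and gave 5 of 9 an unadjusted p under 0.05, as it did 25.7% of all genes. DESeq2 called 1 of 9, Itgal (10.9% of all genes called). Levels in the groups did not overlap for 6 of 9 members: Itgam and Itga6 were higher in every BcorΔE9-10 library, and Itgal, Itgb7, Selplg and Cd44 were lower in every one. Over all genes tested 42.8% did not overlap, 22.6% in the higher and 20.3% in the lower direction.

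**Figure D1:**
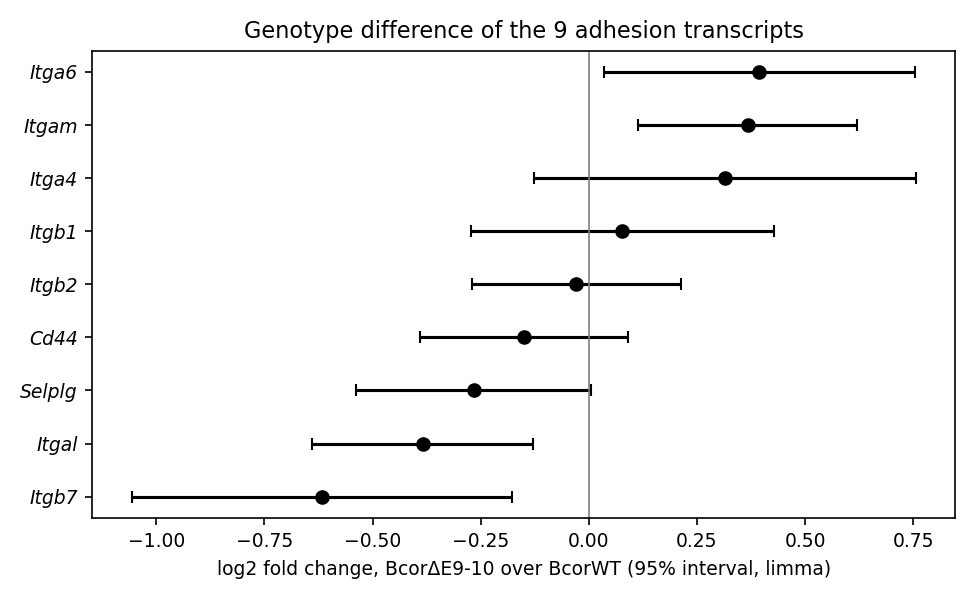
Log2 fold change (x axis, BcorΔE9-10 over BcorWT) of each of the 9 adhesion transcripts, with the 95% interval of the limma fit as bars and a grey line at no difference. Itga6 (0.39) and Itgam (0.37) lie to the right, Itgal (-0.38) and Itgb7 (-0.62) to the left, and these 4 intervals do not cross the line.

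The partners of Itgb2, Itgam and Itgal, lay on opposite sides of 0 on the log2 scale with all libraries, neither past the threshold, and both lay below 0 after GC correction with a replicate block (-0.03 and -0.47). Itgam (chromosome 7, 128062640 to 128118491, plus strand, mm10) counted 1012, 745 and 1132 reads in BcorΔE9-10 cells and 679 and 651 in BcorWT cells. The levels were 120, 122 and 132 CPM against 96.4 and 96.5 CPM. All 3 BcorΔE9-10 libraries stood above both BcorWT libraries, and the BcorWT libraries were nearly alike. The means were 124 ± 6.83 CPM (SD, n = 3) and 96.4 ± 0.0274 CPM (SD, n = 2). On the log2 scale the difference was 0.37 (SE 0.120, 95% interval 0.11 to 0.62, limma adjusted p = 0.0618). Without any 1 library the log2 fold change stayed between 0.31 and 0.40. In bulk samples such as these, a change in the number of cells that carry a transcript and in its amount per cell cannot be told apart.

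The Itgam difference changed with the scaling of the libraries and with a correction for the base composition of transcript ends. The last 300 bases of the Itgam transcript are 27.7% GC, in the lowest of 5 groups of genes split by GC content, and all genes of that group had a median log2 fold change of 0.22, against -0.12 in the highest group. With a trend on GC content removed from each library, the Itgam log2 fold change was 0.02 (limma adjusted p = 0.950). The removal takes out a trend of technique and a trend of genotype alike, and these cannot be told apart here. With libraries scaled by total counts alone it was 0.51 (limma adjusted p = 0.0157), and the median of all genes moved up by 0.14 at the same time. Gm49368 overlaps Itgam on the same strand and had 0 to 3 counts in each library.

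Itgal (chromosome 7, 127296260 to 127335138, plus strand), the alpha chain of LFA-1, had 704, 571 and 744 counts in the BcorΔE9-10 libraries against 819 and 756. Its levels of 83.2, 93.2 and 87.0 CPM all lay below those of 116 and 112 CPM in BcorWT. The means were 87.8 ± 5.04 CPM (SD, n = 3) and 114 ± 3.03 CPM (SD, n = 2), or 0.766 of the BcorWT level (95% interval 0.642 to 0.914). The log2 fold change of -0.38 (SE 0.120) missed the threshold narrowly, with a limma adjusted p = 0.0525. It passed with DESeq2 (adjusted p = 0.0353), with DESeq2 size factors in the limma fit (adjusted p = 0.0437) and after GC correction, where it was -0.47 (limma adjusted p = 0.0206). With total counts alone it was -0.24 (limma adjusted p = 0.247), so adjusted p-values over its 16 alternatives ran from 0.0206 to 0.259.

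Itgb2 (chromosome 10, 77530252 to 77565708, plus strand), the beta chain that both share, had 1568, 1056 and 1758 counts in the BcorΔE9-10 libraries against 1365 and 1277. Its levels were 185, 172 and 205 CPM against 194 and 189 CPM. The BcorWT libraries thus lay within the range of the BcorΔE9-10 libraries. The log2 fold change was -0.03 (SE 0.114, 95% interval -0.27 to 0.21, limma adjusted p = 0.908), and with total counts alone it was 0.12, a move by the 0.14 that the median of all genes moved under that scaling.

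**Figure D2:**
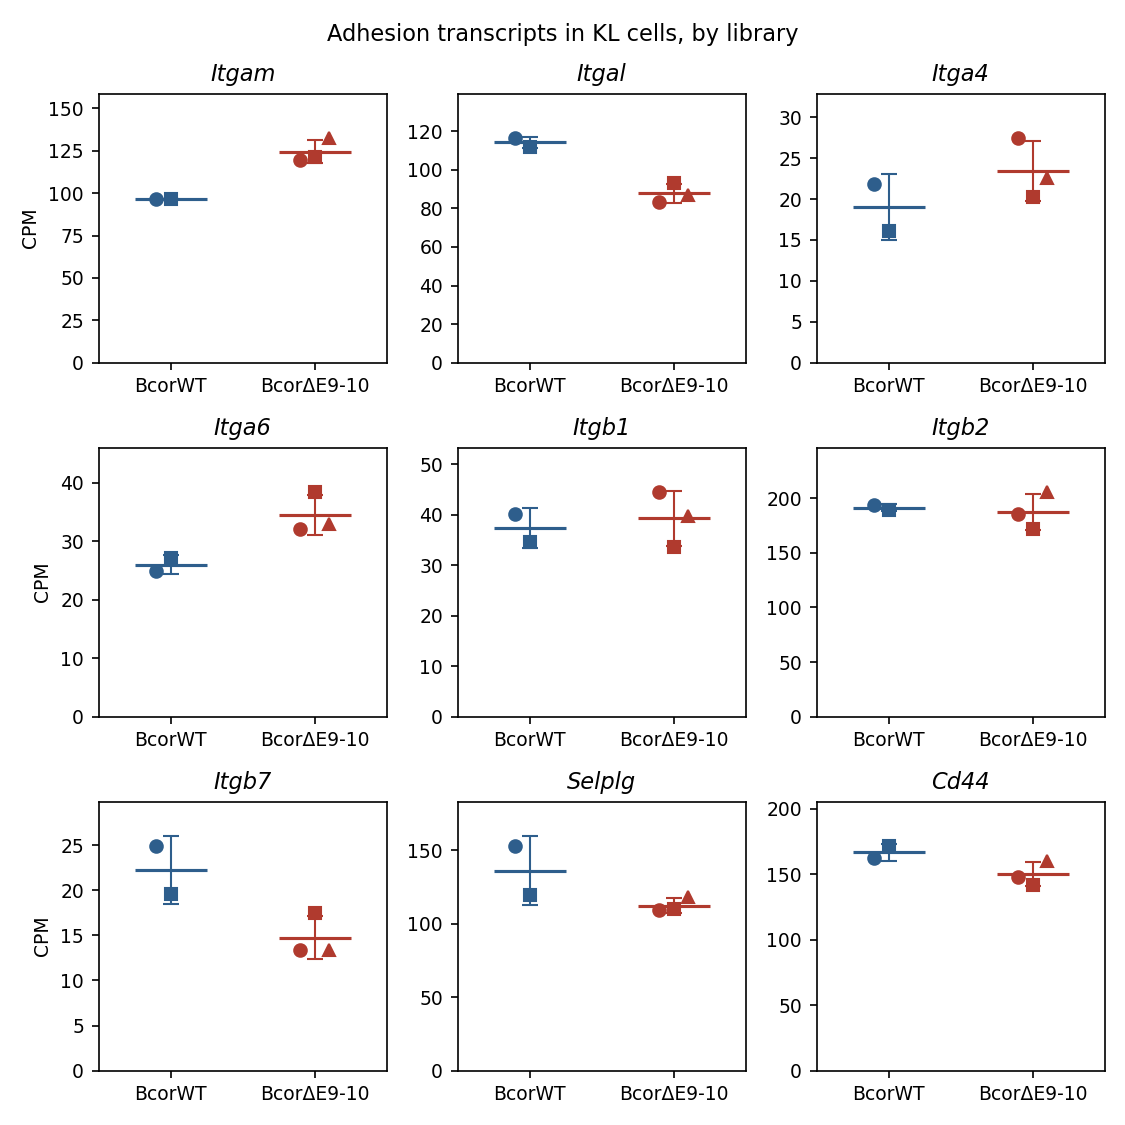
Level of each of the 9 transcripts in CPM (y axes, from 0) in the 2 BcorWT (blue) and 3 BcorΔE9-10 (red) libraries, where the symbol shows the replicate number (circle 1, square 2, triangle 3), long lines are group means and bars 1 SD. Itgam and Itga6 sit higher in all BcorΔE9-10 libraries, Itgal, Itgb7, Selplg and Cd44 sit lower, and Itga4, Itgb1 and Itgb2 overlap.

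Ratios within a library do not depend on the scaling between libraries, although they can move with the base composition of the transcript ends, and the balance of partner chains was compared as the log2 ratio of their counts (with 0.5 counts added to each). The ratio of Itgam to Itgb2 was -0.63, -0.50 and -0.63 in BcorΔE9-10 cells and -1.01 and -0.97 in BcorWT cells. The groups did not overlap, with a difference of 0.40 (two-sided exact permutation p = 0.1, Benjamini-Hochberg adjusted 0.25 over 5 ratios). For Itgal to Itgb2 it was -1.15, -0.89 and -1.24 against -0.74 and -0.76, lower in every BcorΔE9-10 library, with a difference of -0.35 (exact permutation p = 0.2, adjusted 0.25). The 3 and 2 libraries allow 10 arrangements and no p below 0.1, so none of these tests could reach 0.05. The ratio of Itgam to Itgal, chosen after both directions had been seen, was 0.52, 0.38 and 0.61 against -0.27 and -0.22, a difference of 0.75. The Itgam and Itgal transcript ends differ in base composition, at 27.7% and 36.7% GC. With the GC trend of each library removed, a setting chosen after the ratios had been seen, the difference was 0.08 for Itgam to Itgb2, -0.40 for Itgal to Itgb2 and 0.49 for Itgam to Itgal.

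Among the beta-1 partners, Itga6 (chromosome 2, 71745616 to 71858416, plus strand), the alpha chain of laminin receptors on stem and progenitor cells, had 272, 235 and 282 counts in the BcorΔE9-10 libraries against 175 and 183. Its levels of 32.1, 38.3 and 33.0 CPM all exceeded the 24.9 and 27.1 CPM of BcorWT. The means were 34.5 ± 3.37 CPM (SD, n = 3) and 26.0 ± 1.60 CPM (SD, n = 2), and the log2 difference was 0.39 (SE 0.170, 95% interval 0.04 to 0.75, limma adjusted p = 0.155). Unlike Itgam, it kept its size after GC correction (0.41, limma adjusted p = 0.144), its transcript end being 42% GC. Of the 16 alternatives it was called only by the edgeR quasi-likelihood test on total counts alone, a setting chosen after the data had been seen (log2 fold change 0.55, adjusted p = 0.0496).

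Itga4 (chromosome 2, 79255426 to 79333123, plus strand), the alpha chain of VLA-4, had 232, 124 and 193 counts in the BcorΔE9-10 libraries against 154 and 109, or 27.4, 20.2 and 22.6 CPM against 21.9 and 16.2 CPM. The groups overlapped. The log2 fold change of 0.31 (SE 0.209, 95% interval -0.13 to 0.76, limma adjusted p = 0.364) depended on single libraries, since it was 0.53 without BcorWT replicate 1, 0.11 without BcorWT replicate 2 and 0.19 without BcorΔE9-10 replicate 1. Itga4 overlaps Cerkl on the other strand, and the strand setting of the counting is not given in the sources used here.

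Itgb1 (chromosome 8, 128685654 to 128733200, plus strand), the shared beta chain, was the member of the VLA group that differed least, with 376, 206 and 340 counts against 283 and 233. Its levels were 44.4, 33.6 and 39.7 CPM against 40.2 and 34.5 CPM, and the ranges overlapped. The log2 fold change was 0.08 (SE 0.165, 95% interval -0.27 to 0.43, limma adjusted p = 0.814), and its sign turned without BcorΔE9-10 replicate 1 (-0.02) or BcorWT replicate 2 (-0.02), while it was 0.17 without BcorΔE9-10 replicate 2, 0.18 without BcorWT replicate 1 and 0.22 with total counts alone. The log2 ratio of Itga4 to Itgb1 was higher in each BcorΔE9-10 library, at -0.70, -0.73 and -0.82 against -0.88 and -1.09. That difference of 0.24 (exact permutation p = 0.1, adjusted 0.25) was 0.35 without BcorWT replicate 1 and 0.13 without BcorWT replicate 2. For Itga6 to Itgb1 the ratios overlapped, with a difference of 0.34 (exact permutation p = 0.4) that was 0.15 without BcorΔE9-10 replicate 2, 0.17 without BcorWT replicate 1 and 0.51 without BcorWT replicate 2.

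Itgb7 (chromosome 15, 102215995 to 102231935, minus strand), the beta chain that pairs with Itga4 in the gut-homing integrin, showed the largest fold difference of the 9 members with all libraries. After GC correction Itgal (-0.47 against -0.45) was further from 0, and with total counts alone Itga6 (0.54) and Itgam (0.51) were (Itgb7 -0.47). Its counts were low, with 113, 107 and 114 counts in the BcorΔE9-10 libraries against 175 and 132. Its levels of 13.4, 17.5 and 13.3 CPM all lay below the 24.9 and 19.6 CPM of BcorWT, although BcorΔE9-10 replicate 2 came close to BcorWT replicate 2. The means were 14.7 ± 2.38 CPM (SD, n = 3) and 22.2 ± 3.74 CPM (SD, n = 2), or 0.652 of the BcorWT level (95% interval 0.481 to 0.884). The log2 fold change was -0.62 (SE 0.208, limma adjusted p = 0.0707), and it was -0.78 (limma adjusted p = 0.0386) without BcorWT replicate 2, -0.45 (limma adjusted p = 0.374) without BcorWT replicate 1 and -0.45 (limma adjusted p = 0.195) after GC correction. The log2 ratio of Itga4 to Itgb7 was 1.03, 0.21 and 0.76 in the BcorΔE9-10 libraries against -0.18 and -0.28, a difference of 0.90 with no overlap (exact permutation p = 0.2, adjusted 0.25).

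**Figure D3:**
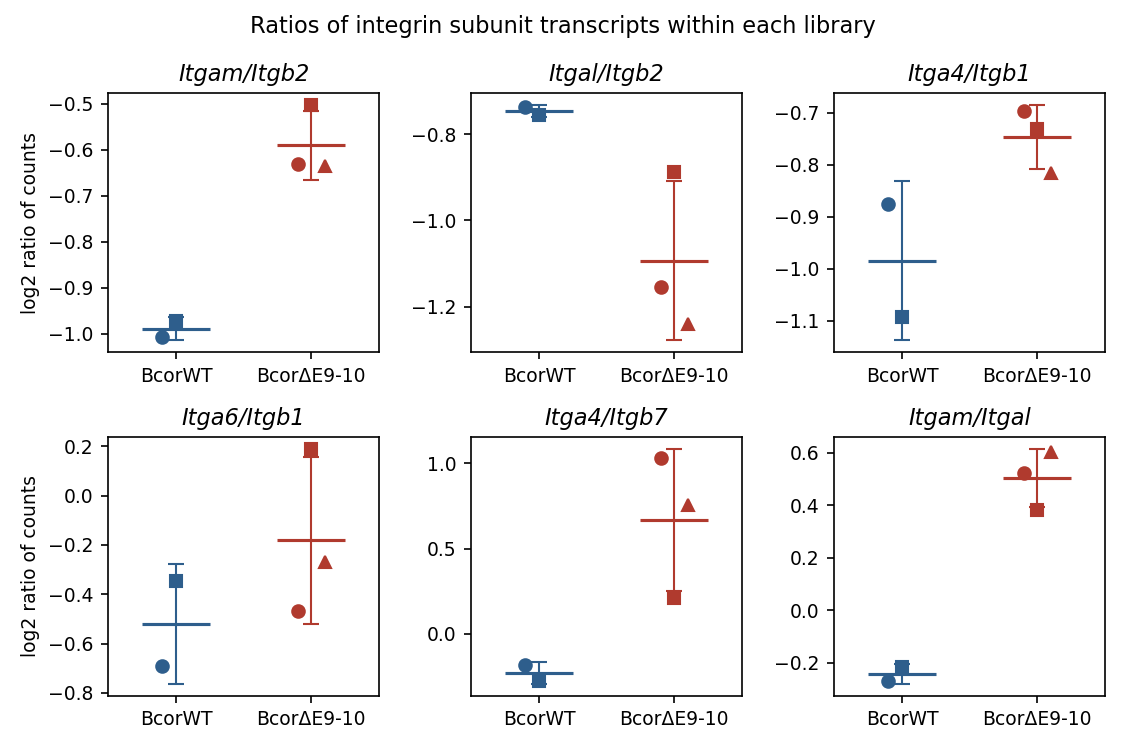
Log2 ratio of the counts of 2 integrin chains within each library (y axes differ between panels and do not start at 0) for the 2 BcorWT (blue) and 3 BcorΔE9-10 (red) libraries, with symbols by replicate number, group means as long lines and 1 SD as bars. Itgam/Itgal lies between 0.38 and 0.61 in BcorΔE9-10 and between -0.27 and -0.22 in BcorWT, and of the 6 ratios Itga6/Itgb1 alone overlaps.

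The non-integrin members, Selplg and Cd44, passed the test in 0 of the 16 alternatives and not with all libraries. Selplg (chromosome 5, 113818536 to 113832644, minus strand), which encodes the selectin ligand PSGL-1, had 924, 673 and 1013 counts in the BcorΔE9-10 libraries against 1076 and 807. Its levels of 109, 110 and 118 CPM lay below the 153 and 120 CPM of BcorWT. The BcorWT libraries differed from each other by more than BcorWT replicate 2 did from any BcorΔE9-10 library. Accordingly the log2 fold change of -0.27 (SE 0.129, 95% interval -0.54 to 0.01, limma adjusted p = 0.209) was -0.09 without BcorWT replicate 1 and -0.44 (limma adjusted p = 0.0504) without BcorWT replicate 2, and -0.09 after GC correction and -0.12 with total counts alone.

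Cd44 (chromosome 2, 102811141 to 102901665, minus strand), the hyaluronan receptor, had 1253, 871 and 1371 counts in the BcorΔE9-10 libraries against 1141 and 1156. Its levels of 148, 142 and 160 CPM lay just below the 162 and 171 CPM of BcorWT. The separation between the groups was smaller than the spread within BcorΔE9-10, and the log2 fold change was -0.15 (SE 0.114, 95% interval -0.39 to 0.09, limma adjusted p = 0.438). With total counts alone it was -0.00, and after GC correction it was -0.20 (limma adjusted p = 0.294).

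Marker genes of other blood cells were examined beside these members, among them mature granulocytes, monocytes, lymphocytes and erythroid cells, which the lineage antibodies are meant to remove. The genes of maturing neutrophils were given above, with 6 of 10 called lower in BcorΔE9-10. Of 8 monocyte-macrophage genes 1 was called lower (summed level 1096 to 1198 CPM against 1442 to 1445 CPM), of 5 tested eosinophil genes 4 were lower (282 to 442 CPM against 803 to 951 CPM), and of 6 tested basophil and mast cell genes 3 were lower and 1 higher (182 to 194 CPM against 288 to 449 CPM). Of 5 early granulocyte-monocyte progenitor genes 0 were called, with sums of 6839 to 8099 CPM against 7373 to 8206 CPM. Of 6 tested erythroid genes 1 was higher (57.0 to 241 CPM against 21.6 to 61.9 CPM). That count depended on the fit and on single libraries: it was 0 after GC correction, with sample quality weights and without BcorΔE9-10 replicate 2, BcorΔE9-10 replicate 3 or BcorWT replicate 1, 3 with total counts alone, 4 in edgeR, 5 with a replicate block or without BcorΔE9-10 replicate 1, and 6 of 9 with no expression filter. Of 4 tested megakaryocyte genes 0 were called (41.8 to 68.4 CPM against 24.6 to 42.7 CPM), but 1 was higher with a replicate block or with total counts alone and 2 with that block and GC correction. Of 5 tested lymphoid genes 0 were called (49.1 to 69.0 CPM against 41.2 to 65.6 CPM), nor was any in the 16 alternatives. The monocyte-macrophage call was lost after GC correction, with total counts alone and without BcorΔE9-10 replicate 1, BcorΔE9-10 replicate 3 or BcorWT replicate 1. Of the early progenitor genes 1 was called higher in 7 alternatives, among them the replicate block, GC correction and the fit without BcorWT replicate 2, and 1 lower without BcorWT replicate 1. The eosinophil count of 4 lower held in all 16 alternatives, with 1 higher as well under total counts alone, and 2 to 4 basophil and mast cell genes were lower (2 without BcorΔE9-10 replicate 1, BcorΔE9-10 replicate 3 or BcorWT replicate 1). The lymphocyte gene Cd3e had 0 counts in 3 of the 5 libraries and at most 3 in the others. The part of these cells in the differences of the 9 members was not tested.

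Genes that act with these receptors were taken from 7 lists of 105 genes, of which 74 were tested. Limma called 13 of the 74 (17.6%, beside 10.1% of all genes), 6 higher and 7 lower, with a median log2 fold change of -0.13. With total counts alone, in limma as in edgeR, 10 were higher and 1 lower. The lists were written with earlier results of these data known, so the share is a description. Few other integrin chains were detected well enough in KL cells: 4 of 14 alpha and 1 of 5 beta chains were tested, and 0 were called with all libraries. Of these 5 chains Itgax, the alpha chain of CD11c, had the lowest limma adjusted p = 0.224, at 2.60, 2.45 and 1.40 CPM against 6.82 and 2.52 CPM, and is named after its values were seen. It was called lower without BcorWT replicate 2 (-1.71, limma adjusted p = 0.0215), and Itga2b, the alpha chain of the platelet fibrinogen receptor, was called higher after GC correction with a replicate block (0.77, limma adjusted p = 0.0226).

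Of the genes that activate integrins or link them to actin, 28 of 31 were tested, and 2 were higher and 3 lower, with a median of -0.20 (-0.06 with total counts alone). The split was 2 higher and 7 lower under a replicate block, and 3 higher and 1 lower with total counts alone. Cyth1, which encodes cytohesin-1, an exchange factor that binds the tail of Itgb2, had 14.3, 16.8 and 22.0 CPM in the BcorΔE9-10 libraries against 2.98 and 5.33 CPM. Every BcorΔE9-10 library was far above both BcorWT libraries (log2 fold change 2.12, SE 0.373, limma adjusted p = 0.00204), and the call held in all 16 alternatives. Fermt3, which encodes kindlin-3, the cofactor of talin at beta tails, had 98.8, 86.2 and 93.5 CPM against 61.6 and 70.5 CPM (log2 fold change 0.50, limma adjusted p = 0.0255). Fermt3 overlaps Trpt1 on the other strand, and 14.4% of the 30-base words of its transcript end occur in transcripts of other genes. With no strand setting known, reads where the 2 genes overlap cannot be told apart.

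On the lower side, Flna, which encodes filamin A, an actin cross-linker that binds beta tails, had 550, 511 and 563 CPM against 876 and 754 CPM (log2 fold change -0.59, SE 0.0991, limma adjusted p = 0.00144). Its groups were well apart, and it too was called in all 16 alternatives. Fgr, a Src-family kinase of myeloid cells, stood at -0.50 (limma adjusted p = 0.0443) and Rassf5, the Rap1 effector RAPL that binds LFA-1, at -0.40 (limma adjusted p = 0.0434). Both were lost with total counts alone (-0.36 and -0.26). They kept nearly their size but missed the threshold when libraries were weighted by quality (-0.49 and -0.39, limma adjusted p = 0.0609 and 0.0558). The same held when no expression filter was used (-0.49 and -0.39, limma adjusted p = 0.0583 and 0.0513). Fgr kept its size after GC correction (-0.49) but missed the threshold (limma adjusted p = 0.0529), and it was called after that correction with a replicate block (-0.61, limma adjusted p = 0.00702). Rassf5 stood at -0.55 (limma adjusted p = 0.00911) after GC correction, and it overlaps Eif2d on the other strand.

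Of the counter-receptors, 6 of 10 were tested and 1 was called. With a replicate block 3 were called, all lower, while edgeR called 1 higher and 1 lower, and total counts alone 1 higher and 0 lower. Icam2, a ligand of LFA-1, had 31.0, 27.1 and 27.1 CPM in the BcorΔE9-10 libraries against 42.3 and 45.3 CPM. The groups did not overlap and the log2 fold change was -0.62 (SE 0.155, limma adjusted p = 0.0176), but it was -0.45 (limma adjusted p = 0.0844) after GC correction and -0.48 (limma adjusted p = 0.0637) with total counts alone. Vcam1, the ligand of VLA-4, named here for that role, was detected at 171, 121 and 144 CPM against 159 and 142 CPM and overlapped (limma adjusted p = 0.851).

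Of the selectins, their ligands and the enzymes that make selectin ligands, 14 of 18 were tested, and 1 was higher and 1 lower, with a median of -0.00 that was 0.15 with total counts alone. C1galt1, which builds the core 1 O-glycan that PSGL-1 carries, had 24.3, 34.3 and 30.5 CPM against 13.8 and 9.93 CPM. It rose in every BcorΔE9-10 library (log2 fold change 1.31, SE 0.238, limma adjusted p = 0.00245) and stood at 0.94 (limma adjusted p = 0.0174) after GC correction. B4galt1, a galactosyltransferase of the same glycans, fell from 375 and 407 CPM in BcorWT to 298, 252 and 298 CPM (log2 fold change -0.47, limma adjusted p = 0.0126), a call lost with total counts alone (-0.32, limma adjusted p = 0.0766). Thus the gene of the ligand protein, Selplg, did not pass the test while these 2 genes of its glycosylation did, in opposite directions.

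Of the Cd44 partners and hyaluronan genes, 9 of 15 were tested and 1 was called, with a median of 0.30 (0.03 after GC correction and 0.04 without BcorWT replicate 1). Srgn, which encodes serglycin, the proteoglycan of granules that can bind Cd44, had 441, 456 and 434 CPM in the BcorΔE9-10 libraries against 155 and 221 CPM. The BcorΔE9-10 libraries were close together and far above BcorWT (log2 fold change 1.26, SE 0.130, limma adjusted p = 3.11e-05). Serglycin is known mainly for granule storage, and its call held in all 16 alternatives. After GC correction Srgn stood at 0.96 (limma adjusted p = 0.000162).

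All 12 tetraspanins and integrin-associated membrane proteins were tested, and 2 were higher and 2 lower, with a median of -0.17 (-0.02 with total counts alone and -0.04 after GC correction). Cd9, a tetraspanin that associates with beta-1 integrins, had 90.3, 99.0 and 89.5 CPM against 42.2 and 50.1 CPM. Its groups were well separated (log2 fold change 1.01, SE 0.141, limma adjusted p = 0.000297), and it stood at 0.63 (limma adjusted p = 0.00759) after GC correction. Cd47, the integrin-associated protein that also signals to phagocytes, was at 125, 198 and 162 CPM against 97.0 and 108 CPM (log2 fold change 0.62, limma adjusted p = 0.0219) and was not called after GC correction (0.33, limma adjusted p = 0.199). The leukocyte tetraspanins Cd53 (-0.49, limma adjusted p = 0.0285) and Tspan32 (-0.57, limma adjusted p = 0.0213) were lower, and neither was called with total counts alone (-0.35 and -0.43). After GC correction Cd53 stood at -0.75 (limma adjusted p = 0.00207), while Tspan32 was not called (-0.40, limma adjusted p = 0.108). Tspan32 overlaps Tspan32os on the other strand.

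Of these 13 calls, 5 (Cyth1, Flna, C1galt1, Srgn and Cd9) held without any 1 library, and the other 8 each depended on at least 1. Without BcorΔE9-10 replicate 1 the calls of Rassf5 (-0.40), Cd53 (-0.38), Fgr (-0.42), Tspan32 (-0.45) and Fermt3 (0.45) were lost. Without BcorΔE9-10 replicate 2 those of Rassf5 (-0.37), Fgr (-0.46), Icam2 (-0.60) and Cd47 (0.47) were, and without BcorΔE9-10 replicate 3 those of Rassf5 (-0.46), Cd53 (-0.51), Icam2 (-0.60), Cd47 (0.59) and Fermt3 (0.48). Removal of BcorWT replicate 1 cost those of Rassf5 (-0.28), Cd53 (-0.47), Fgr (-0.42), Cd47 (0.54) and Fermt3 (0.39), and removal of BcorWT replicate 2 those of B4galt1 (-0.40), Tspan32 (-0.49) and Icam2 (-0.57). The direction held in each of these fits.

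**Figure D4:**
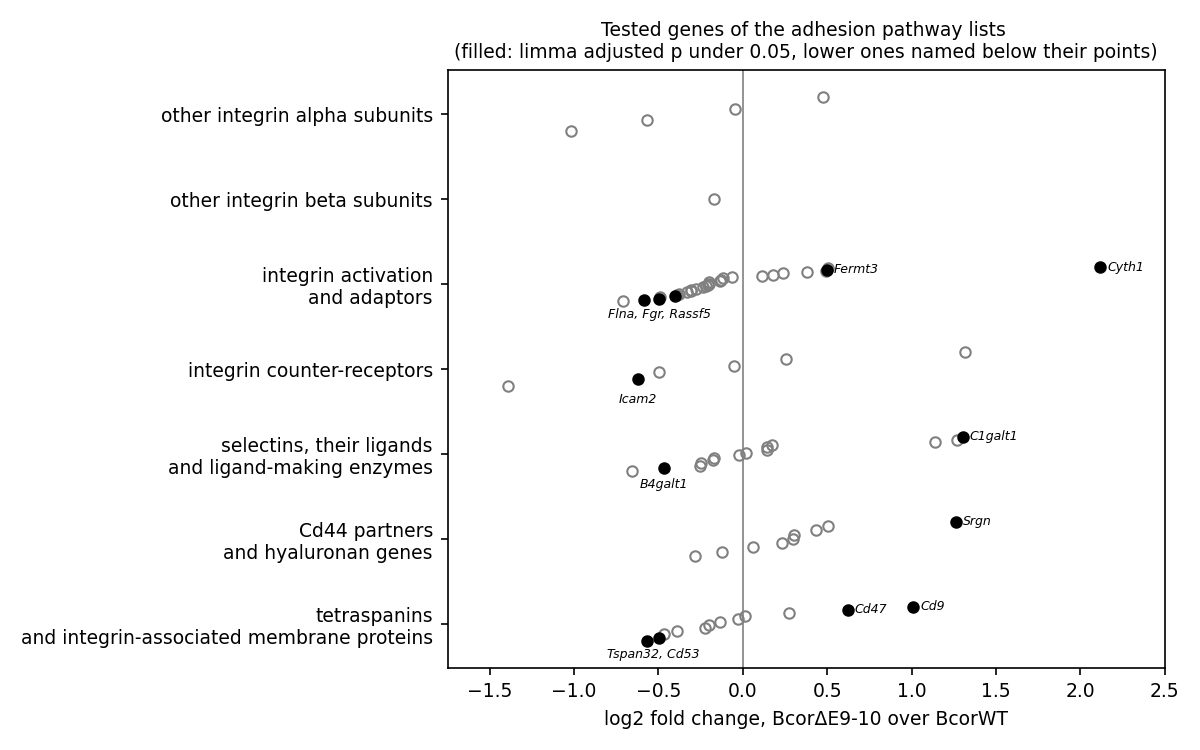
Log2 fold change (x axis, BcorΔE9-10 over BcorWT) of the 74 tested genes of the 7 lists, 1 row a list, with filled points for the 13 genes with a limma adjusted p under 0.05 and vertical offsets within a row only to separate points. Cyth1 (2.12), C1galt1 (1.31), Srgn (1.26) and Cd9 (1.01) lie far to the right, and the 7 lower genes lie between -0.62 and -0.40.

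The genes whose profile over the 5 libraries was most like that of a member were sought among 3282 well-expressed genes, by the root mean square difference of log2 CPM centred on each gene's mean. For Itgb7 they were Traf3ip3 (0.104), Tmem40 (0.112) and Stk19 (0.115). Traf3ip3 had 51.2, 56.8 and 52.9 CPM in the BcorΔE9-10 libraries against 85.5 and 72.2 CPM, with BcorWT replicate 1 the highest as for Itgb7. For Itga6, the other member taken for this search as one of the 2 of largest fold difference in the limma fit on all libraries (Itgal was further from 0 with DESeq2 and after GC correction), they were Atp5j (0.0391), Bclaf1 (0.0407) and Rpl30 (0.0486). Atp5j had 134, 151 and 128 CPM against 96.1 and 108 CPM, with BcorΔE9-10 replicate 2 the highest as for Itga6.

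Each member was also fitted under 16 alternatives, 5 of which leave out 1 library each. Itgal was called in 4 of them: DESeq2, DESeq2 size factors (10.4% of all genes called), GC correction (8.92%) and GC correction with a replicate block (10.8%). Itgam was called in 2, total counts alone (12.0%) and the same with edgeR (12.7%), which also called Itga6. Itgb7 was called in 1, the fit without BcorWT replicate 2 (9.65%), and a replicate block without GC correction called 0 of 9 (12.4%), while Itga4, Itgb1, Itgb2, Selplg and Cd44 were called in 0. Itgal and Itgb7 stayed below 0 in all 16, between -0.47 and -0.24 and between -0.78 and -0.39, and Itga6 stayed above 0, between 0.32 and 0.55. Itgam ran from -0.03 to 0.51.

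**Figure D5:**
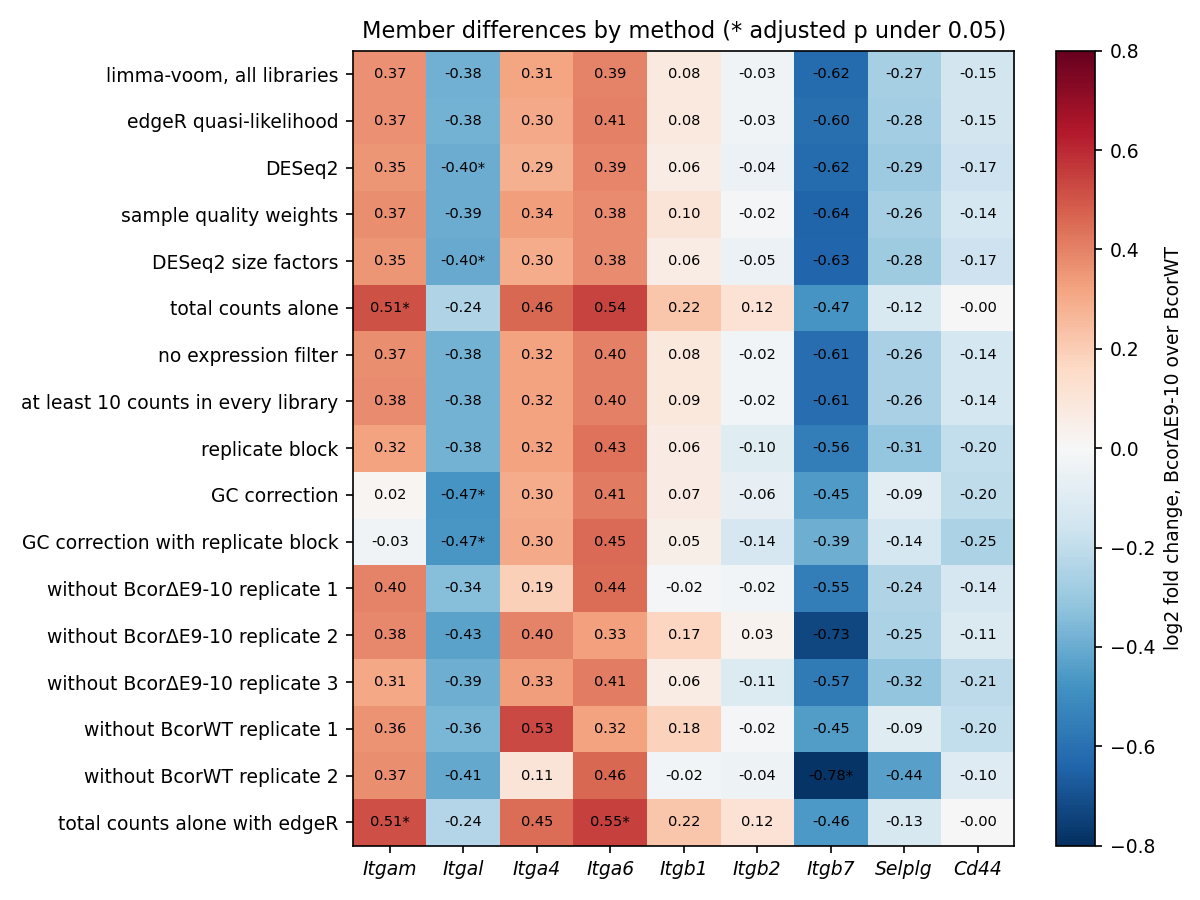
Log2 fold change (colour and printed value, BcorΔE9-10 over BcorWT) of each of the 9 members (columns) in the fit on all libraries and its 16 alternatives (rows), with an asterisk where the adjusted p was under 0.05. The Itgal and Itgb7 columns are blue throughout, Itga6 is red throughout, and the Itgam column fades to 0.02 and -0.03 in the GC-corrected fits.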

How the data were processed

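3′ mRNA sequencing (QuantSeq) libraries were made from sorted KL cells, 3 BcorΔE9-10 and 2 BcorWT, grouped by the sample titles. The authors demultiplexed reads with bcl2fastq (version 2.17.1.14 per the labels), trimmed them with cutadapt, aligned them to mm10 with HISAT2 and counted them per gene with featureCounts of Subread (version 1.5.0-p3), and what they deposited is a table of raw counts, not normalised. The strand and multi-mapping options are not given in the sources used here. A count follows transcript ends and not transcript length, so levels were compared between groups and not between genes. Reads were not counted by molecular identifier.

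Of 52550 genes, 52403 were given a symbol, and 11766 passed the filterByExpr function (edgeR 4.0.16) at a minimum count of 10 and a total of at least 15. Libraries were scaled by TMM and genotype was tested two-sided with limma (version 3.58.1) on voom values in R version 4.3.3, p-values being adjusted by Benjamini-Hochberg across the 11766 genes and called under 0.05, since the methods of the study name limma. Differences are BcorΔE9-10 minus BcorWT on the log2 scale. CPM values are scaled counts, given as mean ± SD. No library was a repeat of another of its group (chi-square per gene 6.01 to 11.6, well above sampling noise).

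The alternatives were edgeR's quasi-likelihood test, DESeq2 (version 1.42.0), sample quality weights, other scalings and filters, a replicate block, removal of a lowess trend (span 0.3) on the GC content of the last 300 transcript bases, and leaving out each library. Of these, only the limma, edgeR and DESeq2 tests in their basic form were run on simulated counts. The 9 members, the pathway and marker lists and the tests were chosen with earlier results of these data known. Named besides the members were Bcor, up to 5 called genes of each pathway list at a mean log2 CPM of 3 or more, the 3 nearest profiles of the 2 members of largest fold change (mean log2 CPM of at least 5), marker genes on which a result turned, and genes singled out for their role after their values were seen.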

Additional observations from a re-analysis of the deposited data

How the results depend on the processing

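Of 144 member differences recomputed (9 members, 16 alternatives), 130 kept their direction and side of the threshold, 8 passed it where they had not and 6 changed sign. Against 0 members called with all libraries, 1 was called by each of DESeq2, DESeq2 size factors, total counts alone, GC correction, and that correction plus the replicate block, 2 with total counts alone in edgeR (chosen after seeing the data), and 0 to 1 without 1 library. The sign changes were Itgb2 at 0.12 (total counts alone in limma and in edgeR, where the median of all genes moved up by 0.14) and 0.026 without BcorΔE9-10 replicate 2 (-0.11 to 0.026 without any 1 library), Itgb1 at -0.016 without BcorΔE9-10 replicate 1 and -0.024 without BcorWT replicate 2 (-0.024 to 0.18 without any 1 library), and Itgam at -0.030 with GC correction and the replicate block. All 6 were of values within their standard error of 0 or, for Itgam, of one the GC correction had taken to 0.02. Genes called over the whole table numbered 1189 with all libraries and 558 to 1200 without 1 library (774 without BcorΔE9-10 replicate 2, 723 without BcorΔE9-10 replicate 3 and 558 without BcorWT replicate 1). Genes called in the pathway lists numbered 13 and, without 1 library, 8 to 14 (8 without BcorΔE9-10 replicate 1 and 8 without BcorWT replicate 1). Without 1 library the Itga4 to Itgb1 ratio difference of 0.24 ran from 0.13 to 0.35 and that of Itga6 to Itgb1 (0.34) from 0.15 to 0.51. With GC correction, chosen after seeing the ratios, that of Itgam to Itgb2 (0.40) was 0.083. A fit without 1 BcorWT library assumes that the other varies like the BcorΔE9-10 libraries. With total counts alone 1210 genes were higher and 197 lower, against 708 and 481, and with no expression filter 1290 of 19399 genes were called.

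The labels do not say that a replicate number marks a shared litter or day. The deviations of same-numbered libraries from their group means correlated at 0.204 and 0.192 over 3794 genes. Deviations of the 2 BcorWT libraries are mirror images of each other by construction. The 2 correlations are therefore not independent and do not establish pairing. The replicate block called 1454 genes (1087 of them among the 1189), 0 of the 9 members and 20 genes of the pathway lists. With 107 to 282 counts a library, Itgb7, Itga4 and Itga6 had standard errors of 0.170 to 0.209, against 0.114 for Itgb2 with 1056 to 1758. The part of depth and of spread between samples in these errors was not tested.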
